A study of Mus musculus with 10 samples.

Results

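Gas6, Pros1, Axl, Mertk and Tyro3 encode the ligands and receptors of the TAM system, named after the receptors Tyro3, Axl and Mertk. These 5 genes were taken from an expression array by their gene names and are read by 6 probes, 1 each and 2 for Tyro3, among 55644 usable probes and 22596 genes tested. The genes were chosen by their measured levels in these same samples, so their levels and differences are given as descriptions, without p-values.

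TAM receptors are tyrosine kinases of the cell surface. Their ligands, Gas6 and protein S (the product of Pros1), carry a domain of modified glutamates made with the help of vitamin K, and through it they bind phosphatidylserine, a lipid that dying cells expose. Gas6 binds every TAM receptor and has Axl as its strongest partner, whereas protein S acts on Tyro3 and Mertk. Gas6 was named for its induction in growth-arrested fibroblasts, Axl is common in mesenchymal cells and their tumors, and Mertk is best known from macrophages, which use it to take up dead cells.

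RNA was measured in cultured mouse mesenchymal stem cells (MSC) of the FVB strain in 5 groups of 2 independent cultures, collected while growing exponentially between passages 2 and 5. The groups were wild-type ASC (MSC from fat), wild-type BM-MSC (from bone marrow), Rb/p53-null ASC, Rb/p53-null BM-MSC, and 1 tumor line. This line came from a tumor that grew from the null BM-MSC under the skin of NSG mice, an immunodeficient strain. By the culture protocol, null cells carried loxP-flanked Rb and p53 alleles and were infected with a Cre adenovirus driven by the CMV promoter after 10 days of osteogenic differentiation, whereas the source labels name double-null mice. The tumorigenic groups, by label, are null BM-MSC and the tumor line, and the last is called a tumor in some fields and a cell line in others. No age, sex, priming or virus is given for the wild-type cells, so loss of Rb and p53, priming and virus cannot be told apart. Bulk RNA also cannot tell fewer cells of a type from less RNA per cell.

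Each array was scaled to the 75th percentile of its own signal, which was 483 to 621 scanner units, and levels are log2 values relative to it. Between 53.3% and 58.4% of spots were well above background and no spot was saturated. Rb1 differed by -1.31 ± 0.051 (log2 difference ± SE) between null and wild-type BM-MSC and by -3.25 ± 0.051 in ASC, and Trp53 by -1.77 ± 0.20 and -5.87 ± 0.20. The null BM-MSC thus kept more of both transcripts than the null ASC. They also kept more than the tumor line, which differed from null BM-MSC by -2.57 ± 0.051 in Rb1. Trp53 was at least 23.1-fold lower in the tumor line than in null BM-MSC, its probe being dim in the tumor line. Comparisons of the tumor line with null BM-MSC therefore also differ in how much of these transcripts was left. The 8 MSC arrays lay on slide 1, wild-type cells in line 1 of its positions and null cells in line 2, and the tumor line arrays lay on slide 2. Tumor line and slide therefore cannot be told apart, nor can null state and line of positions. All 9 mesenchymal markers, among them Pdgfrb, Thy1 and Col1a1, were well above background on every array.

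Each level rests on the probe that reads the transcript. Probes have 60 bases, of which the first 30 are shown in the 5′ to 3′ direction of the transcript, in lower case because no position is singled out. In mm9, the Gas6 probe (A_51_P172054) lies at chr8:13465444-13465503 on the minus strand, the Pros1 probe (A_51_P393426) at chr16:62928674-62928733 on the plus strand and the Axl probe (A_55_P2051414) at chr7:26542541-26542600 on the minus strand. The Mertk probe (A_51_P366138) lies at chr2:128627867-128627926, and the Tyro3 probes at chr2:119643759-119643818 (A_55_P2038247, the brighter, which stands for the gene) and chr2:119642510-119642569 (A_55_P2038252), all on the plus strand. Exon or untranslated position was not determined here.
Gas6 probe: tgggctagaggggctggcagtttgcagcag
Pros1 probe: atcagagacatcaggttatgctgtaagagg
Axl probe: ttgagtgtctgagattctaaaggtccacag
Mertk probe: agcaccaggtgaaagctgtcaagtcaggtt
Tyro3 probe: gcaggctcttgctgttaggaacatttctaa
Tyro3 second probe: atcaacattgagagagctgagcagcctact

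The 250 bases before the start of Gas6 and of Axl are shown because these genes differed most between the tumor line and its parent cells, downward and upward. They come from RefSeq (GRCm38.p6), at chr8:13494536-13494785 and chr7:25788734-25788983, both read on the minus strand. Capitals mark the GC box GGGCGG, bound by Sp1-type factors, and in Axl also the TEAD motif GGAATG, each searched on both strands.
Gas6 promoter: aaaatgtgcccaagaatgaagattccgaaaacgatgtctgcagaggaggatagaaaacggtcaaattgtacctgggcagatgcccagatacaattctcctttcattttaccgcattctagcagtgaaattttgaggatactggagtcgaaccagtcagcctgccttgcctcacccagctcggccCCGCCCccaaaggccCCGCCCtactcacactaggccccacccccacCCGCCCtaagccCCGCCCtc
Axl promoter: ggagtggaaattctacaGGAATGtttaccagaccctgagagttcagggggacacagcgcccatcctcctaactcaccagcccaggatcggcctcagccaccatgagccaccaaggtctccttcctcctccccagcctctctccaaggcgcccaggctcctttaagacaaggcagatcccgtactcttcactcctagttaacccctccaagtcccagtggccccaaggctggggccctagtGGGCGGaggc
The Gas6 window held 4 GC boxes and the Axl window 1 GC box and 1 TEAD motif, near its far end. All 5 members matched a window, and the Pros1 window held 5 GC boxes, 2 of which overlap, and those of Mertk and Tyro3 held 3 each. A GC box occurred in 32.7% of all 32851 windows of this length and a TEAD motif in 12.6%. The AP-1 motif TGANTCA and the E2F motif TTTNGCGC, found in 6.75% and 1.13% of windows, had no match in the 5. The share of G and C was 54.8% for Gas6, 60.0% for Axl, 63.6% for Mertk, 64.4% for Pros1 and 73.2% for Tyro3, against a median of 52.4%. Such matches describe letters, and nothing was measured at these windows.

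Gas6, the shared ligand, was abundant in every MSC group and nearly lost in the tumor line. Its level was 6.79 and 6.80 in the wild-type ASC cultures, 6.53 and 6.57 in null ASC, 7.34 and 7.30 in wild-type BM-MSC and 7.30 and 7.24 in null BM-MSC. Tumor line arrays read -1.90 and -1.81. In scanner units that is 53600 to 92300 on the 8 MSC arrays and 141 and 177 on the tumor line arrays, still well above background on both. No tumor line value came near an MSC value, and among the MSC the BM-MSC arrays all lay above the ASC arrays.

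The tumor line differed from null BM-MSC by -9.13 ± 0.051, a 558-fold lower Gas6 signal, and from wild-type BM-MSC by -9.17 ± 0.051, or 577-fold. The range of the 5 group means, 9.17, ranked Gas6 105th of 22596 genes, whose median range was 1.06. The 2 BM-MSC groups overlapped and differed by -0.05 ± 0.051 (null minus wild type), a sign that turned to 0.08 with quantile normalization and in the deposited series matrix. Null ASC differed from wild-type ASC by -0.25 ± 0.051, more than the spread of either pair. BM-MSC exceeded ASC by 0.52 ± 0.051 in wild-type and 0.72 ± 0.051 in null cells. Ordered by level, wild-type BM-MSC (7.32 ± 0.029, SD, n = 2) and null BM-MSC (7.27 ± 0.042) did not separate, and wild-type ASC (6.80 ± 0.0098), null ASC (6.55 ± 0.032) and the tumor line (-1.85 ± 0.064) followed, each beyond the spread of its neighbour.

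Pros1, which encodes the other ligand, was lower in null than in wild-type cells of both tissues. Its level was 2.73 and 2.88 in wild-type ASC, 1.28 and 1.35 in null ASC, 3.61 on both wild-type BM-MSC arrays, 2.47 and 2.43 in null BM-MSC, and 1.70 and 1.69 in tumor line cultures. No 2 groups overlapped, and the order from wild-type BM-MSC through wild-type ASC, null BM-MSC and tumor line to null ASC separated at every step. The null minus wild-type difference was -1.16 ± 0.061 in BM-MSC (2.24-fold lower) and -1.49 ± 0.061 in ASC (2.81-fold lower), and the 2 differed by 0.33 ± 0.087. BM-MSC exceeded ASC by 0.80 ± 0.061 in wild-type and 1.14 ± 0.061 in null cells. The tumor line lay -0.75 ± 0.061 from null and -1.91 ± 0.061 from wild-type BM-MSC, the latter 3.77-fold lower. The tumor line thus differed from null BM-MSC by under 2-fold in Pros1 and by 558-fold in Gas6.

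Axl, the receptor with the highest affinity for Gas6, followed tissue of origin in the MSC and was highest in the tumor line. Its level was 5.23 and 5.36 in wild-type ASC cultures, 5.26 and 5.25 in null ASC cultures, 3.78 and 3.70 in wild-type BM-MSC cultures, and 3.72 and 3.68 in null BM-MSC. Tumor line cultures had 5.63 and 5.72. Both tumor line arrays lay above every MSC array, both ASC groups lay above both BM-MSC groups, and within a tissue the null and wild-type arrays overlapped. BM-MSC differed from ASC by -1.55 ± 0.063 in wild-type cells (2.94-fold lower) and by -1.55 ± 0.063 in null cells (2.93-fold lower). The tumor line exceeded null BM-MSC, its parent type, by 1.98 ± 0.063 (3.94-fold) and wild-type BM-MSC by 1.94 ± 0.063 (3.83-fold). The null minus wild-type difference was -0.04 ± 0.063 in each tissue, less than the spread between replicates.

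Mertk differed in opposite directions between null and wild-type cells of the 2 tissues. Its level was -1.29 and -1.22 in wild-type ASC, -1.71 and -1.74 in null ASC, -2.25 and -2.11 in wild-type BM-MSC, -0.34 on both null BM-MSC arrays, and -1.89 and -1.82 on tumor line arrays. In scanner units that is 110 to 410, a faint signal in every group, though well above background on every array. The range also holds the tumor line signal of Gas6 (141 and 177). Null BM-MSC stood above all other arrays, wild-type BM-MSC was lowest, and no 2 groups overlapped. Null BM-MSC exceeded wild-type BM-MSC by 1.84 ± 0.062 (3.58-fold), while null ASC differed from wild-type ASC by -0.47 ± 0.062 (1.39-fold lower). The tumor line was 2.86-fold lower than null BM-MSC (-1.51 ± 0.062) and differed from wild-type BM-MSC by 0.33 ± 0.062. BM-MSC differed from ASC by -0.92 ± 0.062 in wild-type and by 1.39 ± 0.062 in null cells.

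Because Mertk is a macrophage receptor, myeloid markers were read beside it. Each group had 8 to 12 of 16 markers well above background on its pair of arrays, and their summed level (log2 of the added signals) was 4.56 to 4.62 in null BM-MSC against 4.87 to 4.89 in wild-type BM-MSC. The ranges were 4.89 to 5.11 for wild-type ASC, 4.09 to 4.18 for null ASC and 3.88 to 3.97 in the tumor line. Itgam had means of 4.54 in wild-type BM-MSC, 4.23 in null BM-MSC, 4.5 in wild-type ASC and 3.48 in null ASC. It made up most of the summed level in these MSC groups, so the sum there says little about the other markers. In the tumor line the Itgam mean was 2.8. Spi1, the myeloid master regulator, and the scavenger receptor Cd163 were not well above background on any array. Fcer1g was highest in null BM-MSC (0.10 ± 0.021, n = 2) and -1.61 ± 0.11 in wild-type BM-MSC, whereas Cd68, Cd14, Aif1 and Lyz2 were lower in null than in wild-type BM-MSC. Tyrobp (-1.93 ± 0.022), C1qa (-2.53 ± 0.098) and C1qc (-3.28 ± 0.087) were well above background only in the tumor line. Cd14 (1.93), Lyz2 (-1.73) and C1qb (-3.13) also had their highest mean there. The markers thus went in both directions, as Itgam, Csf1r (0.19), Adgre1 (-4.61) and Ptprc (-5.59) had their lowest mean in the tumor line.

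Osteoblast markers were read as well, since by the culture protocol the null cells had been primed toward bone. Their summed level was -1.16 in wild-type ASC, -1.04 to -0.52 in null ASC, 4.72 to 4.79 in wild-type BM-MSC, 6.35 to 6.40 in null BM-MSC. Tumor line arrays had 7 and 7.08. Ibsp (bone sialoprotein) had means of 2.37 ± 0.024 in wild-type BM-MSC, 5.69 ± 0.028 in null BM-MSC and -4.41 ± 0.28 in tumor line cultures (SD, n = 2). Alkaline phosphatase (Alpl) was 0.12 ± 0.054 in wild-type and 2.23 ± 0.031 in null BM-MSC, and the bone transcription factor gene Sp7 was -0.24 ± 0.12 and 1.39 ± 0.0050. Both were not well above background on either tumor line array. Runx2 was also highest in null BM-MSC (-0.40 ± 0.062, against -1.14 ± 0.096 in wild-type BM-MSC and -1.22 ± 0.18 in the tumor line), and Bglap is described with the Gla proteins. Spp1 (osteopontin) had another order, with 4.21 ± 0.10 in wild-type BM-MSC, 3.66 ± 0.051 in null BM-MSC and 7.03 ± 0.050 in tumor line cultures, so it made up most of the summed level there. Of the lymphoid and erythroid markers, the hemoglobin gene Hba-a1 was -0.12 ± 0.073 in the tumor line and -4.10 ± 0.28 in null BM-MSC, and was well above background on 1 wild-type BM-MSC array and no ASC array. Their summed level was 0.97 to 1.14 in the tumor line and 0.43 to 0.61 over the MSC arrays. The part of myeloid, osteoblast or blood cells in the Mertk level or in the tumor line levels was not tested.

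Tyro3, the receptor that is best known from neurons, was higher in BM-MSC than in ASC. On the probe that stands for the gene its level was 2.08 and 2.09 in wild-type ASC, 2.33 and 2.36 in null ASC, 3.18 and 3.20 on wild-type BM-MSC arrays, and 3.38 and 3.42 on null BM-MSC arrays. Tumor line arrays read 3.59 and 3.46. Groups did not overlap, but the means of the tumor line (3.52) and null BM-MSC (3.40) lay closer than the tumor line's own pair. BM-MSC exceeded ASC by 1.10 ± 0.054 in wild-type cells (2.15-fold) and by 1.05 ± 0.054 in null cells (2.08-fold). The wild-type value was 0.99 when both Tyro3 probes were averaged, just under 2-fold. Null cells exceeded wild-type cells by 0.21 ± 0.054 in BM-MSC and 0.26 ± 0.054 in ASC, and the tumor line exceeded null BM-MSC by 0.12 ± 0.054.

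The second Tyro3 probe, 1 of 2 probes on the same gene and no separate replicate, gave the same tissue difference. It read -2.81 and -2.68 in wild-type ASC, -2.66 and -2.61 in null ASC, -1.89 and -1.85 on wild-type BM-MSC arrays, and -1.59 and -1.54 on null BM-MSC arrays. Tumor line arrays read -1.55 and -1.66. On it BM-MSC exceeded ASC by 0.88 in wild-type and 1.07 in null cells, and the tumor line differed from null BM-MSC by -0.04, the opposite sign to the first probe. Null cells exceeded wild-type cells on it by 0.30 in BM-MSC and 0.11 in ASC, so the 2 effects differed by 0.19, against -0.05 on the first probe. The probes thus had opposite signs for the small tumor line difference and for that difference of effects, and the same sign for the tissue differences.

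**Figure D1:**
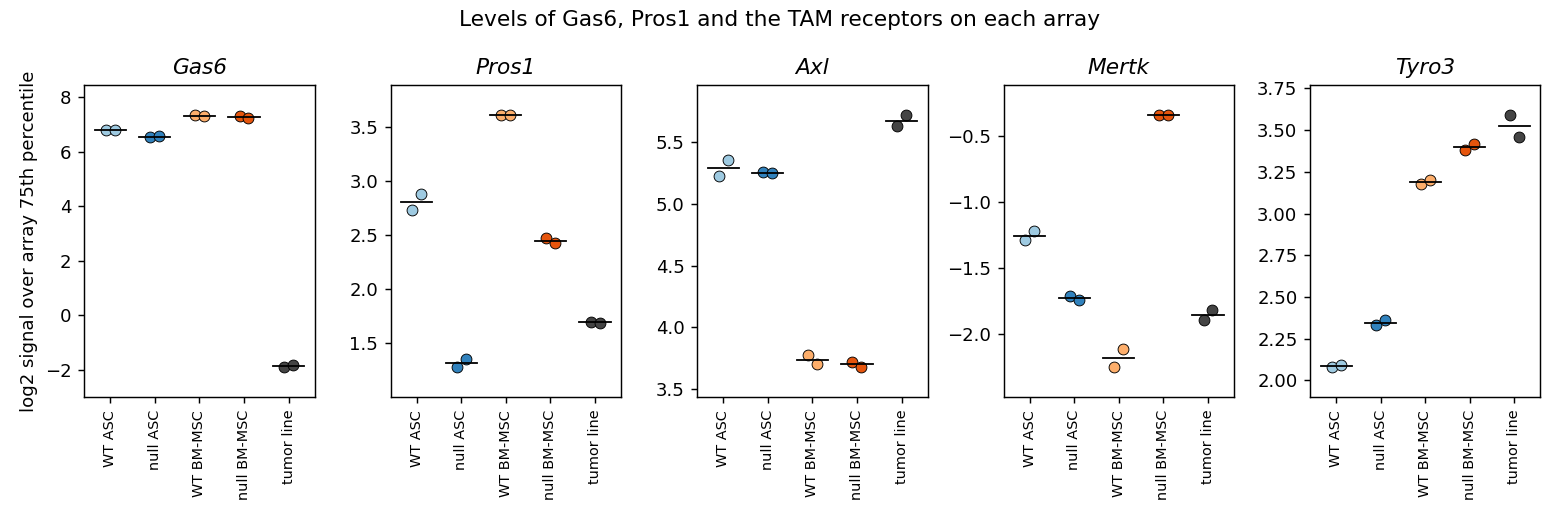
Level of each gene on each of the 10 arrays (log2 signal over the array's 75th percentile, with its own vertical scale per gene), by group; points are arrays and bars the mean of 2. Gas6 is at 7.27 in null BM-MSC and at -1.85 in the tumor line, Axl is highest there at 5.68, and Mertk peaks in null BM-MSC at -0.34.

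Differences of at least 2-fold were counted over the 5 genes, as a description beside the share of all 22596 genes past the same fold. Between null and wild-type cells the count was 2 in BM-MSC (Pros1 lower, Mertk higher; 9.8% of all genes) and 1 in ASC (Pros1; 10.6%). The effects in the 2 tissues differed by at least 2-fold for 1 gene, Mertk (13.9% of all genes). Between BM-MSC and ASC the count was 2 in wild-type cells (Axl lower, Tyro3 higher; 19.3%) and 4 in null cells (all but Gas6; 20.6%). Between the tumor line and BM-MSC it was 3 against null cells (Axl higher, Gas6 and Mertk lower; 30.5%) and 3 against wild-type cells (Axl higher, Gas6 and Pros1 lower; 29.7%). The median absolute difference of the 5 genes was 0.21 and 0.26 in the null contrasts of BM-MSC and ASC, against 0.25 and 0.28 over all genes. It was 1.51 against 0.61 between the tumor line and null BM-MSC. The range of group means was 2.3 for Pros1 (ranked 4523 of 22596), 1.98 for Axl (5473), 1.84 for Mertk (6000) and 1.44 for Tyro3 (8087). Nothing is read from these counts, since the same differences chose the genes, and the contrasts share groups with each other.

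**Figure D2:**
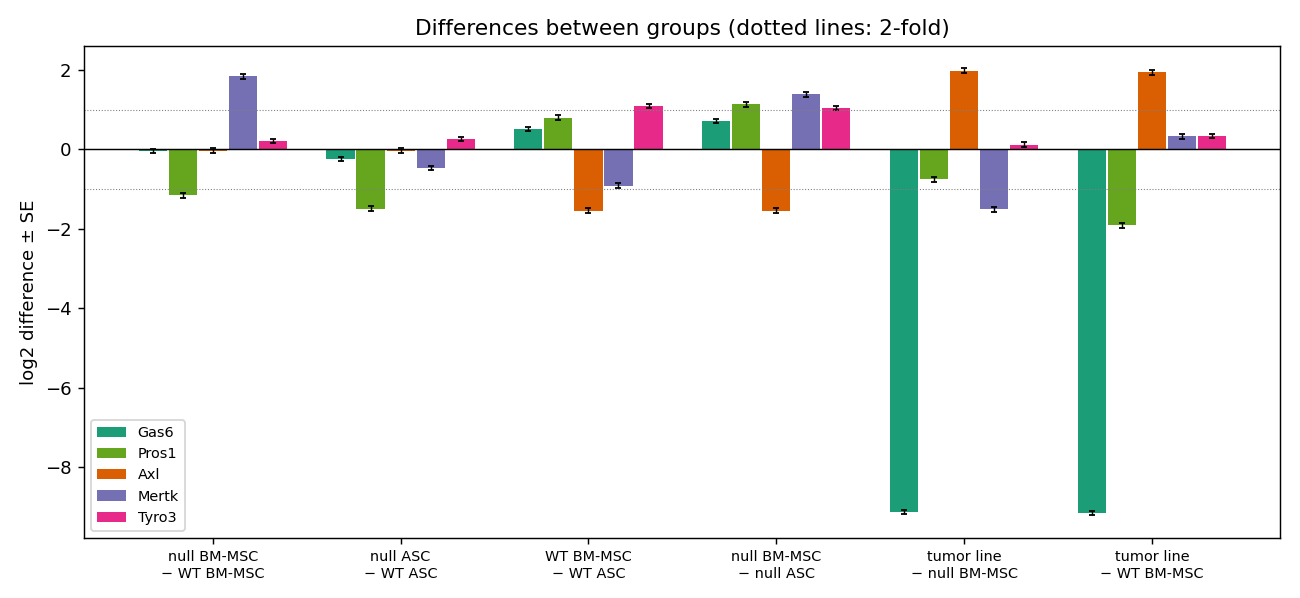
Log2 difference between 2 groups for each gene (bars from 0; error bars are the SE from the linear model, 2 arrays a group), with dotted lines at 2-fold. Gas6 reaches -9.13 and -9.17 in the tumor line contrasts, and Mertk and Pros1 lie past 2-fold on opposite sides in null against wild-type BM-MSC (1.84 and -1.16).

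The other genes of the pathway were taken from 9 lists with 111 genes, of which 104 were tested with limma and Benjamini-Hochberg adjustment over all genes. The share of all genes called in the same direction stands beside each total, and the counts per list that follow have the same shares of all genes as background. In null against wild-type BM-MSC 52 passed, or 50% against 39.5% of all genes, with 24 higher (19.3% of all genes) and 28 lower (20.2%). In ASC 47 passed, or 45.2% against 41.5%, with 16 higher (20.3%) and 31 lower (21.2%). The effects of the 2 tissues differed for 49, or 47.1% against 31.8%, with 28 higher in BM-MSC (15.3%) and 21 lower (16.6%). BM-MSC differed from ASC for 78 in wild-type cells, or 75% against 54%, with 37 higher (25.7%) and 41 lower (28.3%). In null cells that count was 62, or 59.6% against 55.4%, with 36 higher (26%) and 26 lower (29.4%). The tumor line differed from null BM-MSC for 80, or 76.9% against 69.5%, with 36 higher (34.6%) and 44 lower (35%). Against wild-type BM-MSC it was 77, or 74% against 67.8%, with 33 higher (33%) and 44 lower (34.8%). The median difference of these genes stayed within 0.1 of zero in all 7 contrasts, as did that of all genes. Counts include genes dim in 1 group, whose size is known only as a bound.

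The vitamin K cycle makes the modified glutamates that Gas6 and protein S need. Of its 7 genes, 4 were lower in the tumor line than in null BM-MSC (35% of all genes), none was higher (34.6% of all genes) and 3 did not pass. Ggcx, the carboxylase itself, differed by -1.27 ± 0.053 (adjusted p = 2.36e-06), with a level of 1.49 to 1.81 as group means in the MSC and 0.54 ± 0.057 in the tumor line. Vkorc1, which recycles vitamin K, differed by -1.03 ± 0.060 (adjusted p = 9.77e-06) and the quinone reductase Nqo1 by -1.80 ± 0.068 (adjusted p = 1.58e-06). Aifm2, which also reduces vitamin K, differed by -0.15 ± 0.052 (adjusted p = 0.0407), a call that ended in most alternatives, and its other probe differed the other way between BM-MSC and ASC and between null and wild-type BM-MSC. Vkorc1l1 and the inhibitor Calu differed by -0.05 and 0.12 and did not pass. Against wild-type BM-MSC 4 of 7 were again lower and none higher, in a comparison that shares the tumor line arrays.

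Between null and wild-type cells this list had 1 gene higher and 1 lower in BM-MSC (19.3% and 20.2% of all genes) and 1 higher and 2 lower in ASC (20.3% and 21.2%). In BM-MSC Ggcx was higher by 0.18 ± 0.053 (adjusted p = 0.0358), a call that ended when any 1 of 8 MSC arrays was left out, and Aifm2 lower by 0.28 on the log2 scale (adjusted p = 0.00686). The Aifm2 call ended with median scaling (adjusted p = 0.119) and with its probes averaged (-0.08, adjusted p = 0.282). In ASC Vkorc1l1 was higher (0.59 ± 0.070, adjusted p = 0.000807) and Nqo1 (-0.63 ± 0.068, adjusted p = 0.000531) and Aifm2 (-0.30) lower. Nqo1 was higher in BM-MSC than in ASC by 1.85 ± 0.068 in wild-type cells and 2.52 ± 0.068 in null cells. In wild-type cells 4 of 7 genes were higher in BM-MSC and 2 lower, and in null cells 3 and 2.

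Other proteins with a vitamin K-dependent Gla domain went in both directions. Of 12 tested, 4 were higher and 5 lower in the tumor line than in null BM-MSC, and 2 higher and 6 lower in null than in wild-type BM-MSC. The osteocalcin genes Bglap and Bglap2 are near-identical copies that these probes may not separate. Bglap2 was 5.69 ± 0.034 in null BM-MSC, 2.28 ± 0.13 in wild-type BM-MSC and -3.88 ± 0.14 in the tumor line, and Bglap was at least 499-fold lower in the tumor line than in null BM-MSC, its probe being dim there. Prrg4, a transmembrane Gla protein, was lower in null than in wild-type BM-MSC (-1.68 ± 0.15, adjusted p = 0.000264) and higher in the tumor line than in null BM-MSC (2.28 ± 0.15, adjusted p = 1.52e-05). In wild-type cells 9 of 12 were higher in BM-MSC than in ASC (25.7% of all genes) and none was lower (28.3% of all genes), with a median of 1.11 against -0.05 for all genes. Null ASC had 2 higher and 3 lower than wild-type ASC.

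Among other TAM ligands, Lgals3 (galectin-3, a Mertk ligand) passed in all 7 contrasts. It was higher in the tumor line than in null BM-MSC by 0.97 ± 0.053 (adjusted p = 7.15e-06), lower in null than in wild-type BM-MSC (-0.47 ± 0.053, adjusted p = 0.000772) and higher in null than in wild-type ASC (0.54 ± 0.053, adjusted p = 0.000358). Tulp1 differed by -0.05 between the tumor line and null BM-MSC and passed only in wild-type BM-MSC against ASC (-0.80 ± 0.16, adjusted p = 0.00604). Tub was dim and not tested.

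TAM receptors are released from the cell by the metalloproteases ADAM10 and ADAM17, which need cofactors and are held back by TIMP3. Of 9 such genes, 2 were higher and 5 lower in the tumor line than in null BM-MSC. Timp3, the inhibitor, was lower by a log2 difference of -2.80 ± 0.081 (adjusted p = 5.45e-07), and Frmd8, which stabilises the ADAM17 cofactors, was higher by 1.52 ± 0.043 (adjusted p = 4.94e-07). Of the proteases, Adam10 was lower (-0.71 ± 0.051, adjusted p = 2.5e-05). The ADAM17 cofactor genes went apart, Rhbdf1 being lower (-0.57 ± 0.045, adjusted p = 3.97e-05) and Rhbdf2 higher (1.36 ± 0.095, adjusted p = 2.3e-05). Between null and wild-type cells Timp3 was higher in BM-MSC (0.67 ± 0.081, adjusted p = 0.00106) and lower in ASC (-1.56 ± 0.081, adjusted p = 3.05e-05), the same signs as Mertk in each tissue. Adam17 itself differed by 0.13 between the tumor line and null BM-MSC and by -0.19 between null and wild-type cells in either tissue, and did not pass. Rhbdf2 was lower in null than in wild-type BM-MSC (-1.12 ± 0.095, adjusted p = 0.000241). The list had 3 higher and 3 lower in null against wild-type BM-MSC, and none higher and 3 lower in ASC.

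Downstream of the receptors lie adaptors, PI3 kinase, Akt, Vav exchange factors and the SOCS inhibitors that TAM signals induce. Of 24 signalling partners, 11 were higher and 9 lower in the tumor line than in null BM-MSC, with a median difference of 0. Vav3 was higher by 2.80 ± 0.34 (adjusted p = 0.000366) and Tns2, a partner of Axl at the membrane, lower by a log2 difference of -1.26 ± 0.041 (adjusted p = 8.76e-07). Grb2, the adaptor, was higher by 0.65, and Akt1 was -0.34 from null BM-MSC. In null against wild-type cells 6 were higher and 5 lower in BM-MSC and 3 and 5 in ASC. Of the SOCS genes in the tumor line, Socs3 (1.31 ± 0.095, adjusted p = 2.73e-05) and Socs1 (0.95 ± 0.052, adjusted p = 7.66e-06) were both higher than in null BM-MSC. Null and wild-type BM-MSC differed in opposite directions for them, with Socs1 higher (0.63 ± 0.052, adjusted p = 0.000222). There Socs3 was lower (-0.84 ± 0.095, adjusted p = 0.000769) and Vav3 higher (1.52 ± 0.34, adjusted p = 0.0134) in null BM-MSC, the latter not without 1 null BM-MSC array (adjusted p = 0.0749). BM-MSC had 2 higher and 12 lower than ASC in wild-type cells (25.7% and 28.3% of all genes).

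Genes that expose phosphatidylserine, which TAM ligands bind, numbered 8. In the tumor line 4 were higher and 2 lower than in null BM-MSC, with Atp8a1, a flippase subunit, at 1.44 ± 0.38 (adjusted p = 0.0132, lost without either of 2 arrays) and the scramblase gene Ano6 at -0.66 ± 0.14 (adjusted p = 0.00488). The apoptotic scramblase gene Xkr8 was higher by 0.73. In null against wild-type BM-MSC none was higher and 3 were lower, with Plscr1 at -1.43 ± 0.091 (adjusted p = 7.61e-05), and in ASC 1 was higher and 2 were lower.

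Other receptors and bridges for dead cells numbered 15, of which 5 were higher and 7 lower in the tumor line than in null BM-MSC. Thbs1 (thrombospondin-1) was lower by a log2 difference of -4.47 ± 0.084 (adjusted p = 1.10e-07), the bridging protein gene Mfge8 was higher by 0.96, and Scarb1 was higher by 1.46 ± 0.073 (adjusted p = 5.05e-06). Stab1, a phosphatidylserine receptor, was at least 18.2-fold higher, its probe being dim in null BM-MSC. Edil3, another bridge, was higher in BM-MSC than in ASC by 6.75 ± 0.22 in wild-type cells (adjusted p = 1.33e-06) and 7.02 ± 0.22 in null cells. In null against wild-type cells the list had 5 higher and 2 lower in BM-MSC and 2 higher and 6 lower in ASC, where Itgb3 was higher (1.73 ± 0.056, adjusted p = 8.03e-06).

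The engulfment machinery includes the nuclear receptors that act after uptake and can induce Mertk. Of 13 genes, 1 was higher and 8 lower in the tumor line than in null BM-MSC (34.6% and 35% of all genes), with a median of -0.42 against -0.05 for all genes. The lower ones included the nuclear receptors Pparg (-3.65 ± 0.070, adjusted p = 1.17e-07) and Nr1h3 (-3.46), which encodes LXR alpha, and Elmo1, at least 4.51-fold lower because its probe was dim in the tumor line. The higher one was Crk (0.19 ± 0.044, adjusted p = 0.00851). Its 2 other probes differed the other way, and the average of its probes did not pass (adjusted p = 0.91). In null against wild-type BM-MSC, where Mertk was higher, Nr1h3 was lower (-1.12 ± 0.13, adjusted p = 0.000966), Pparg lower by 0.29 on the log2 scale and the lipid exporter gene Abca1 higher (1.14 ± 0.14, adjusted p = 0.0012). Ppard, another nuclear receptor gene, was higher in null BM-MSC (0.30). The list had 4 higher and 4 lower in null against wild-type BM-MSC, and 3 higher and 7 lower in null against wild-type ASC. In null ASC, where Mertk was lower, Ppard (-0.36) and Nr1h3 (-1.45 ± 0.13, adjusted p = 0.000274) were lower and Pparg (0.25) was higher. The part of these receptors in the Mertk level was not tested.

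Regulators reported to act on Axl, among them YAP/TAZ with TEAD factors, AP-1 and Sp1, were the last list. Of 14, 8 were higher and 4 lower in the tumor line than in null BM-MSC (34.6% and 35% of all genes), with a median of 0.35 against -0.05 for all genes. Tead2 was 3.53 ± 0.21 in wild-type ASC, 3.83 ± 0.047 in null ASC, 2.03 ± 0.060 for wild-type BM-MSC, 1.23 ± 0.041 for null BM-MSC and, highest, 5.18 ± 0.054 in the tumor line. It was thus lower in both ASC groups than in the tumor line and lowest in both BM-MSC groups, as Axl was. Within a tissue Tead2 departed from Axl, whose null and wild-type arrays overlapped. Its arrays did not overlap there, with null cells lower in BM-MSC and higher in ASC. The tumor line exceeded null BM-MSC by 3.95 ± 0.099 in Tead2 (adjusted p = 3.19e-07), by 3.81 in the AP-1 gene Fosl1 and by 1.18 in Wwtr1, which encodes TAZ, while Yap1 (-0.91) and Tead3 (-1.71 ± 0.091, adjusted p = 6.76e-06) were lower. Fosl1 did not share the tissue order, being higher in wild-type BM-MSC than in wild-type ASC by 2.82 ± 0.15 (adjusted p = 1.09e-05). The part of these factors in the Axl level was not tested. In null against wild-type cells 3 were higher and 3 lower in each tissue.

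**Figure D3:**
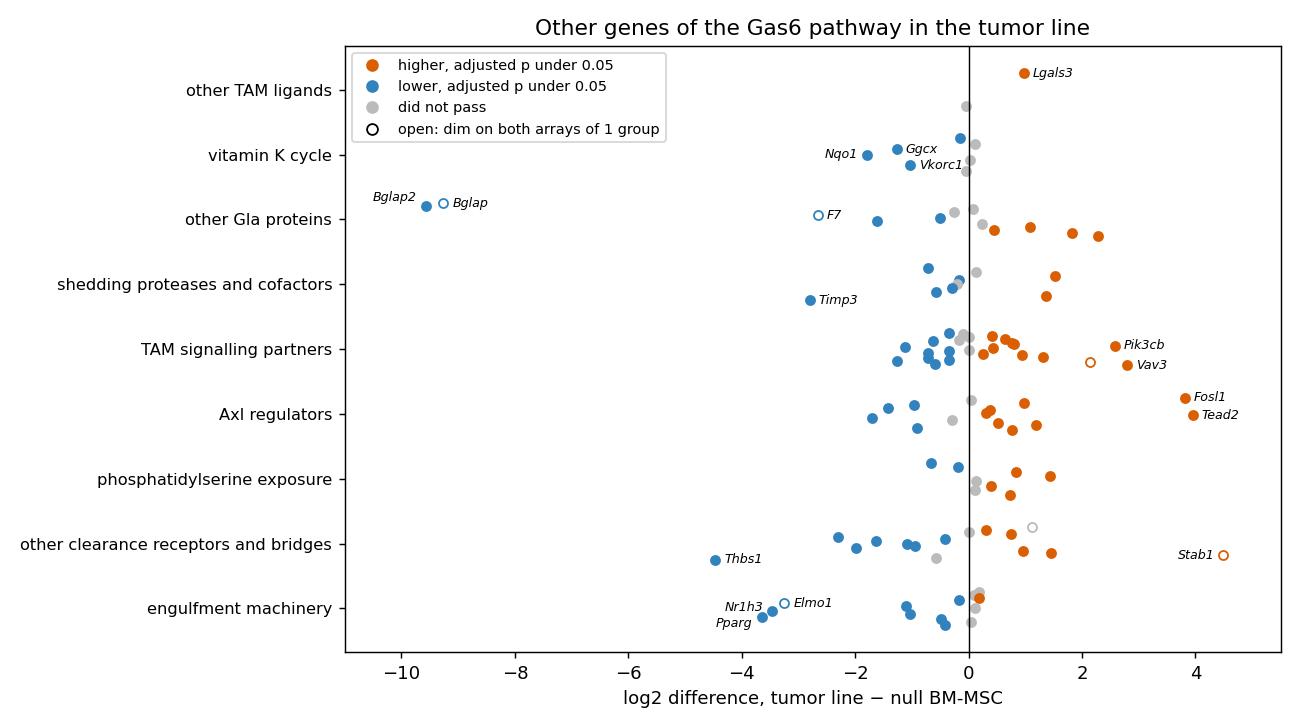
Log2 difference between the tumor line and null BM-MSC for the 104 other pathway genes tested, by list, with filled points measured in both groups and open points dim on both arrays of 1 group (shown at the fitted value, which is no measured size). In the vitamin K row 4 of 7 genes are lower and none higher, and in the engulfment row 8 of 13 are lower and 1 higher, against 35% of all genes lower and 34.6% higher.

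For each TAM gene, the 3 genes with the most similar profile over the 10 arrays were found among 6560 named genes with an SD of at least 0.5. The correlations describe points that share arrays, scaling and only 5 groups, and high values are common when 1 group stands far apart. For Gas6 they were Sgce (epsilon-sarcoglycan; r = 0.9999), Myl9 (a myosin light chain; 0.9986) and Tagln (transgelin; 0.9982). Over the 8 arrays without the tumor line, a choice made after the data were seen, these were 0.988, 0.824 and 0.778. Sgce had group means of 4.20, 4.08, 4.59 and 4.54 in wild-type ASC, null ASC, wild-type BM-MSC and null BM-MSC, against -2.18 for the tumor line, so it repeated the small MSC differences of Gas6 as well as the large one.

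For Axl the nearest were Tkt (transketolase; r = 0.9962), Btf3l4 (0.9949) and Elapor2 (0.9922), and for Tyro3 Itm2a (0.9966), the kinase gene Camkk1 (0.9958) and the integrin gene Itgb7 (0.9952). For Pros1 they were Tcea2 (0.9904), Fbxl16 (0.9856) and Ikzf4 (0.9828). These stayed at 0.981 to 0.999 without the tumor line. Mertk had the least similar neighbours, namely the corepressor gene Cbfa2t3 (0.9427), the myosin gene Myo1d (0.9207) and the homeobox gene Tlx2 (0.9038). All 3 shared the Mertk peak in null BM-MSC, Myo1d with 6.15 there and 4.66 to 5.20 in the other groups. Cbfa2t3 had -1.44 there against -6.89 to -4.73 elsewhere, and Tlx2 had -3.55. Some of these neighbours were dim, with means below the lowest signal well above background on the arrays concerned. Tlx2 was dim in every group but null BM-MSC (-6.92 to -6.25). Cbfa2t3 was dim in wild-type BM-MSC (-6.89) and the tumor line (-6), and Elapor2 in wild-type (-7.56) and null BM-MSC (-7.34). Their correlations thus rest partly on values near the floor. Among the TAM genes themselves r ran from -0.66 between Pros1 and Axl to 0.47 between Gas6 and Pros1.

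**Figure D4:**
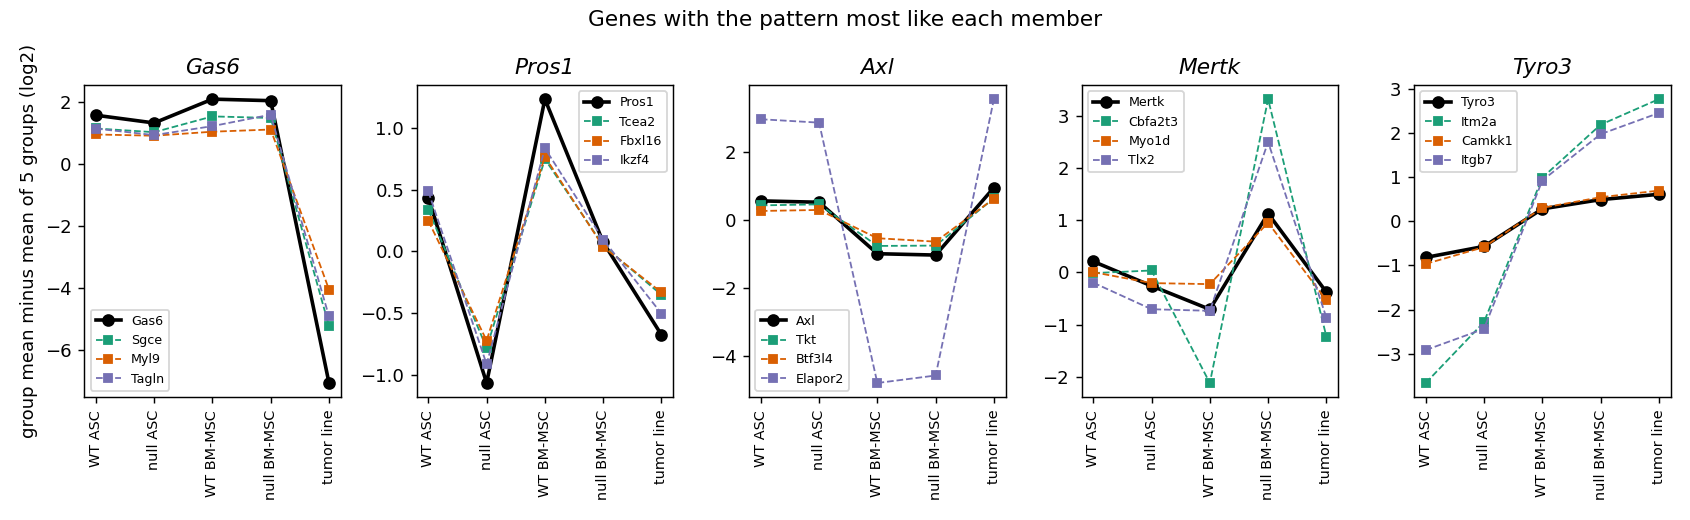
Group means minus the mean of the 5 groups (log2) for each TAM gene (black) and its 3 most similar genes (dashed), over wild-type ASC, null ASC, wild-type BM-MSC, null BM-MSC and the tumor line. The Gas6 panel is ruled by the tumor line (r from 0.9982 to 0.9999), and the Mertk panel shows the loosest match (0.9038 to 0.9427).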

How the data were processed

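The authors scanned single-colour (Cy3) Agilent arrays. Per the file headers, Feature Extraction version 10.7.3.1 made the spot intensity, with background subtracted, and the flags, and positions refer to mm9. The authors' deposited series matrix has values on what reads as a log2 scale (r = 0.989 to 0.993 with the scanner values), and how they were normalized is not stated in the labels or headers. The submitters' processing notes name limma, without its role.

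From the scanner files, outlier spots were dropped, log2 signals of a probe averaged and the 75th percentile of the array subtracted. Of 55681 probes 37 were dropped. The brightest of a gene's probes stood for it. Names came through RefSeq (27214 probes by accession, 3578, 565 and 41 by symbol, synonym and letter case) or from the file (24246), giving 34717. Tested were genes that some group had well above background on its 2 arrays. All 5 groups entered 1 limma 3.58.1 fit (R 4.3.3, data.table version 1.17.8; 5 residual and 1.35 prior degrees of freedom), two-sided, with Benjamini-Hochberg adjustment over 22596 genes and a threshold of 0.05. Differences are log2, with a median SE of 0.0946, and a p-value reflects only how duplicate cultures vary. A probe dim on both arrays of 1 group gives only a bound: the mean of the bright group against, per dim array, the higher of its lowest signal well above background and the probe's own signal. On simulated data for null against wild-type BM-MSC, 67.5% of 200 genes changed by 1 (log2) among 22596 were recovered, and 9.4% of calls were false. That false share is above the threshold of 0.05. In the measured data 39.5% of genes were called in this contrast, far more than were changed in the simulation. The simulated rates therefore do not carry over to the measured contrasts.

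Members and lists were chosen with earlier results of these data known. Named were all members, Rb1, Trp53, the extreme called genes per list and contrast, the vitamin K and other-ligand lists (some list genes are not reported here), and the 3 genes most like each member; other genes of the lists were chosen after their values were seen. Of the other marker lists, 2 to 4 of 8 endothelial, 2 to 4 of 7 lymphoid and erythroid and 3 to 6 of 6 osteoblast markers were above background in a group's 2 arrays. Alternatives were normexp (offset 50), quantile and median scaling, the series matrix, other filters, averaged probes, a replicate block, and arrays or the tumor line left out.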

Additional observations from a re-analysis of the deposited data

Results flagged for a closer look

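The pathway held 14 genes whose null minus wild-type difference passed in both BM-MSC and ASC with opposite signs, and for which the difference of the 2 effects passed as well (limma, Benjamini-Hochberg over all genes; groups of 2 are too small to look for single outlying arrays). The value given is the log2 effect in BM-MSC minus that in ASC. These were 13.5% of the 104 pathway genes, and 1180 of all 22596 genes met the same conditions, or 5.22%. In 9 of the 14 the effect was higher in BM-MSC. Bglap (4.43 ± 0.18) and Bglap2 (5.13 ± 0.19), near-identical osteocalcin genes, Timp3 (2.23 ± 0.12), Abca1 (2.12 ± 0.20) and Gulp1 (1.39 ± 0.072), an engulfment adaptor, had the wider gaps. Itgb5 (0.75 ± 0.074), Ppard (0.66 ± 0.061), Furin (0.64 ± 0.090) and Tns2 (0.52 ± 0.058) had the narrower ones. In the other 5 it was lower in BM-MSC, namely Fosl1 (-2.55 ± 0.21), F2 (-2.2 ± 0.24), Lgals3 (-1.0 ± 0.074), Prrg1 (-0.91 ± 0.090) and Pparg (-0.54 ± 0.098). Adjusted p-values of the difference ran from 2.89e-05 for Bglap2 to 0.00764 for Pparg, whose call was lost with median scaling (adjusted p = 0.0833). The F2 effect in ASC (0.65) did not pass with normexp background (adjusted p = 0.143) or in the series matrix (adjusted p = 0.0715).

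Mertk was higher in null BM-MSC and lower in null ASC on every array than in the wild-type cells of the same tissue, 1.84 and -0.47, a gap of 2.31 ± 0.087 on the log2 scale. As the gene was chosen for its levels, this difference was not tested.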

How the results depend on the processing

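Over 19 alternatives, or 18 where the tumor line is compared, 35 differences of the TAM genes gave 655 values, of which 93 moved by more than 1 SD between replicates and 4 reversed a difference past that SD. Smaller differences also crossed zero, namely Axl in null minus wild-type ASC (-0.1 to 0.04) and in the difference of null effects (-0.11 to 0.07). Gas6 in null minus wild-type BM-MSC went from -0.05 to 0.08 with quantile normalization and to 0.08 in the series matrix, and Tyro3 in the difference of null effects from -0.05 to 0.02 with median scaling and to 0.07 with averaged probes. Averaged probes also left 1 TAM gene in place of 2 past 2-fold in wild-type BM-MSC against ASC and turned Aifm2 in null BM-MSC against ASC from -0.38 to 0.11. Median scaling took the genes called in the difference of effects from 7195 to 4735 and moved the median of all genes from -0.016 to 0.087 in null BM-MSC against ASC, from -0.053 to 0.050 in the tumor line against null BM-MSC and from -0.060 to 0.066 against wild-type BM-MSC; the causes were not tested. Of 3185 values of named pathway genes and of Rb1 and Trp53, 76 lost and 17 gained a call. With the replicate number as a block, 8507 genes were called in null against wild-type BM-MSC (8920 without), 8974 in ASC (9379) and 78 pathway genes between the tumor line and null BM-MSC (80). Deviations of same-numbered arrays correlated at -0.122 to 0.116 over 10 pairs of groups, over 0.1 in 2. No strong effect shared by same-numbered arrays was thus seen. Such correlations cannot settle whether same-numbered cultures were handled together. Leaving out 1 array gave 71 to 79 called pathway genes in that comparison and 42 to 53 in null against wild-type BM-MSC; a lone array was assumed to vary like the others. Each group had 2 arrays, which limits the precision, and dim probes have only bounds.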
